A study of Rattus norvegicus with 12 samples.

Results

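The nuclear genes of mitochondrial complex I and of its assembly were followed in iAM-1, a rat cell line made from atrial myocytes of newborn Wistar animals by conditional immortalization. They were taken as every row of the deposited CPM values (a gene's reads scaled to all reads assigned in its library) whose gene name begins with Nduf and whose mean reached 0.5 CPM in at least 1 of the 4 groups. Of the 32761 features, 47 have such a name and 43 met the level, and all 43 passed the filter on low values of the tests. The 4 below it were Ndufa4l2, Ndufb4l1 and both rows named Ndufa1. Just inside the level stood Ndufaf2, whose group means ran from 2.53 to 4.94 CPM, and Ndufaf6, from 3.7 to 5.63 CPM. Just outside stood Ndufa1, from 0.0203 to 0.17 CPM. Ndufs6, Ndufb1 and Ndufaf8 were not analysed here.

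The 12 samples form 4 groups of 3, and all were grown in 2% serum without doxycycline, the agent that drives the immortalizing gene of the line, so that the cells could differentiate. The groups were untransduced cells, cells that received a lentiviral control vector carrying ppluc shRNA, and cells that received either Sbk2 shRNA #1 or Sbk2 shRNA #2 by the same kind of vector, here shRNA 1 and shRNA 2. Sbk2 encodes a kinase of the SH3-binding family. D9 and P10 stand in every title without explanation. All cells are of 1 line, and whether the 3 samples of a group were cultured apart is not stated; p-values therefore measure only the spread between these samples, which may be technical.

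Complex I takes electrons from NADH, passes them along iron-sulfur clusters to ubiquinone and pumps protons across the inner mitochondrial membrane. Its N module oxidizes NADH, its Q module reduces ubiquinone, and the proximal and distal parts of its membrane arm hold the proton channels, which are encoded in mitochondrial DNA. Core subunits carry out the chemistry, accessory subunits surround them, and assembly factors build the complex without staying in it. Heart muscle is rich in mitochondria and draws most of its ATP from the chain that complex I feeds. By these roles the 43 genes were 9 of the N module, 6 of the Q module, 8 of the proximal and 11 of the distal membrane arm, 7 assembly factors, Ndufa4 and the pseudogene Ndufv3-ps1.

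The promoters of the genes with the largest falls and rises under the Sbk2 shRNAs are shown first, 3 of genes that fell with both shRNAs and 2 of assembly factor genes that rose with both. They are RefSeq sequences of the GRCr8 build, 250 bases before to 50 after the start of transcription, written 5′ to 3′ on the strand of the gene. Such windows were found by symbol for 38 of the 43 genes. Capitals mark matches, on either strand, to 5 words known from the promoters of mitochondrial genes.
Ndufv1, chr1:210734842-210735141, minus strand: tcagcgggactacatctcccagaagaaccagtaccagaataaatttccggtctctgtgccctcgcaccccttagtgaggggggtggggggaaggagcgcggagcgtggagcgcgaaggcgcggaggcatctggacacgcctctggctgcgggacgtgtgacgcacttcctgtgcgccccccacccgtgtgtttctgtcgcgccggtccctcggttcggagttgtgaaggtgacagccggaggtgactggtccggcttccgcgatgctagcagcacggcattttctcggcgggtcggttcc
Ndufs1, chr9:72073556-72073855, minus strand: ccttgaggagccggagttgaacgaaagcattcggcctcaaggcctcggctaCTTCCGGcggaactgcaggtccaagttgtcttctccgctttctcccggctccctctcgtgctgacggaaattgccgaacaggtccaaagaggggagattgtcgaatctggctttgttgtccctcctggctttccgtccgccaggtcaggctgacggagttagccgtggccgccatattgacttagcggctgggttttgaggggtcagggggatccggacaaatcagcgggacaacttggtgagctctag
Ndufb7, chr19:41477242-41477541, minus strand: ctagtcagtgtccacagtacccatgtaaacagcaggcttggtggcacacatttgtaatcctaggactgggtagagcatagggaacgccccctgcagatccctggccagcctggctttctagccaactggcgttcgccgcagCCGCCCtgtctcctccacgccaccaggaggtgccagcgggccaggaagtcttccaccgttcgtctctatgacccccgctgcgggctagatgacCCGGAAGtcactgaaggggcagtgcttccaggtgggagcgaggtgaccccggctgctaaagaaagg
Ndufaf5, chr3:147961362-147961661, plus strand: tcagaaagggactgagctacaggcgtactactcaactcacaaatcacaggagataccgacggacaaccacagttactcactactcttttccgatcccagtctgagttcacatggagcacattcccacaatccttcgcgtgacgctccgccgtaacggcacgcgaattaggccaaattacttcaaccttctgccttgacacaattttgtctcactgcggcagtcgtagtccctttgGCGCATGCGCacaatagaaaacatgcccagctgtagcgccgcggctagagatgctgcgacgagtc
Ndufaf7, chr6:21871916-21872215, minus strand: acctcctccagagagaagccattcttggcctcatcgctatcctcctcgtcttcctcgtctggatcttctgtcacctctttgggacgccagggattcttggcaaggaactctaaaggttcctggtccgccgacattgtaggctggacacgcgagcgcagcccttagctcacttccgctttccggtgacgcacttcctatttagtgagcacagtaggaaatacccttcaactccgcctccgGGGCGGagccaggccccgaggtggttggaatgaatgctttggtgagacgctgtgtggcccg
The words were the palindrome in capitals in Ndufaf5 for NRF1, CCGGAAG for ETS factors, AAGATGGC for YY1, AAGGTCA for ERR and GGGCGG for the GC box, and none of them lies within another. The window of Ndufv1 held none of the 5, that of Ndufs1 held the ETS word at bases 52 to 58 and that of Ndufb7 held the ETS word at bases 235 to 241 and the GC box at 142 to 147. The NRF1 word stood at bases 236 to 245 of Ndufaf5, 15 bases before the start, and the GC box at bases 240 to 245 of Ndufaf7. Across the 38 windows the NRF1 word was held by 3 (7.89%, against 0.852% of all 33469 rat windows of this length), by Ndufa11, Ndufaf4 and Ndufaf5. The YY1 word was held by 7 (18.4%, against 3.17%), the ETS word by 7 (18.4%, against 8.75%), the ERR word by 3 (7.89%, against 4.61%) and the GC box by 17 (44.7%, against 33.1%). These matches are descriptions of the letters and no test was made on them.

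**Figure D1:**
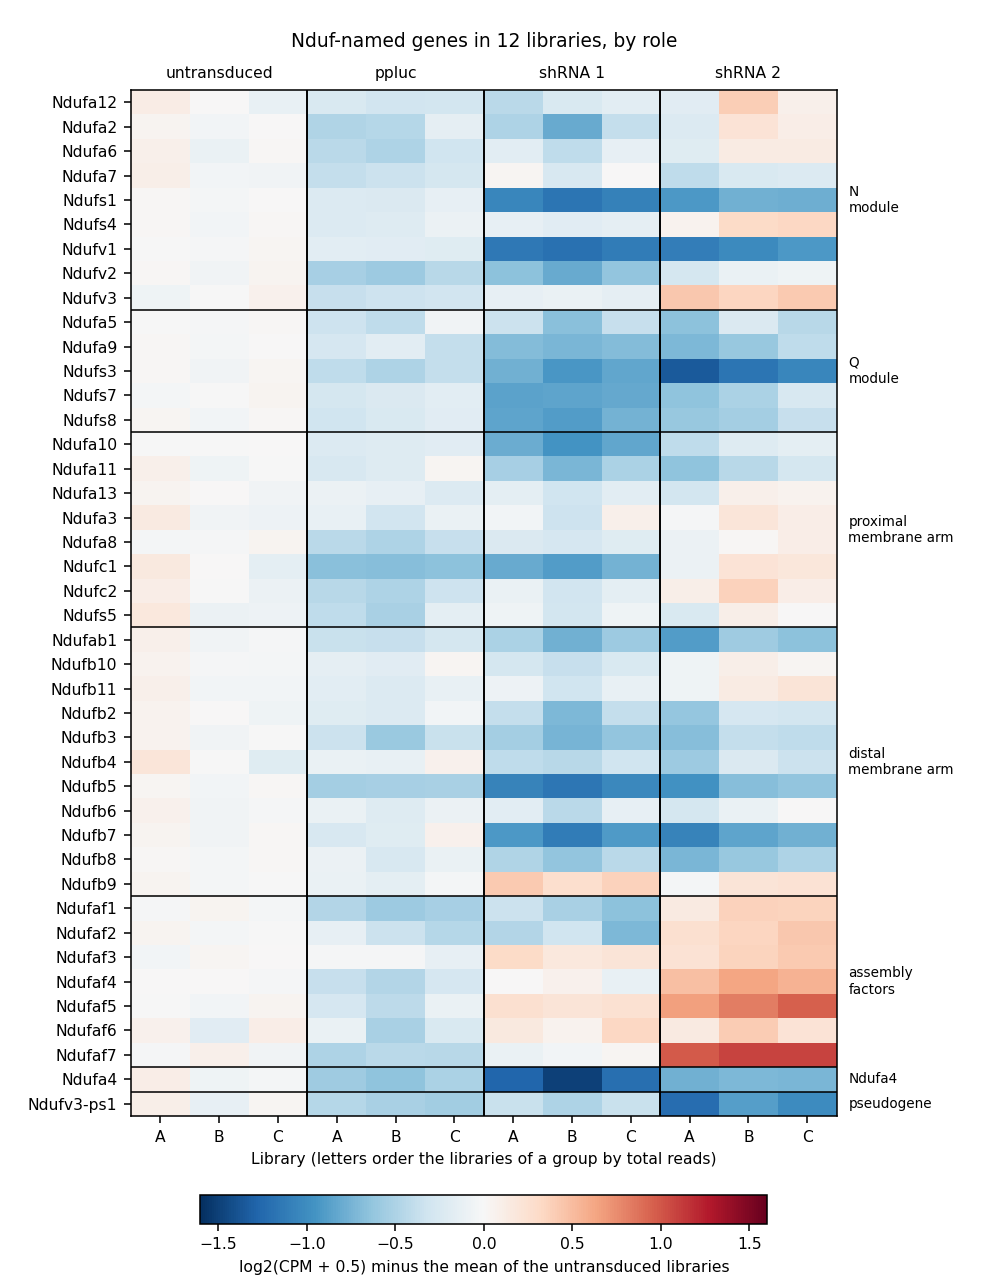
Level of 42 of the 43 genes (rows, grouped by role) in each of the 12 libraries (columns, A to C within a group in order of total reads), as log2(CPM + 0.5) minus the mean of the untransduced libraries. With ppluc the rows are mostly pale blue; with the shRNAs the rows of Ndufv1, Ndufs1, Ndufs3, Ndufb5, Ndufb7 and Ndufa4 are among the darkest, and those of Ndufaf5 and Ndufaf7 turn red with shRNA 2.

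Levels can be set between genes only per length, so they are given in TPM, the authors' group means scaled also by transcript length. In untransduced cells the assembly factors were the least abundant, from 3.73 TPM for Ndufaf6 to 19.2 TPM for Ndufaf3. Every subunit stood above them, from 35.2 TPM for Ndufab1, the mitochondrial acyl carrier protein, to 873 TPM for Ndufb9 of the distal membrane arm. Next to Ndufb9 stood Ndufb7 at 801 TPM and Ndufb8 at 794 TPM, both also of the distal arm, and Ndufa4 at 662 TPM. Ndufa4 is named as a complex I subunit but has since been placed with cytochrome c oxidase. The medians were 366 TPM for the N module, 251 TPM for the Q module, 253 TPM for the proximal arm, 412 TPM for the distal arm and 14.6 TPM for the assembly factors.

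The deposited units differ in how much of some of these genes they hold, and that bears on which values can be read. Both rows named Ndufa1, on chromosome X, had 2287 and 1235 TPM in untransduced cells but 0.0393 and 0.0203 CPM, at or below 2 reads in each of those libraries. Ndufa12 had 509.9 TPM but 6.45 CPM, 79.1 TPM for each CPM, and Ndufv3-ps1 had 332 TPM but 16.2 CPM. More than 10 TPM for each CPM was found for 5 of the 43 genes (11.6%), against 235 of 11669 tested genes (2.01%); the others were Ndufa3, Ndufa13 and Ndufb4. RefSeq lists 44 pseudogenes named after 18 of the 43 genes. The rows named Ndufa13 (chromosome 7, 429 bases) and Ndufs5 (chromosome 2, 321 bases) lie on another chromosome than RefSeq's gene of that name. No source used here says how reads shared with such copies were counted, so CPM values of these genes are uncertain, and the part of copies in them was not tested.

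**Figure D2:**
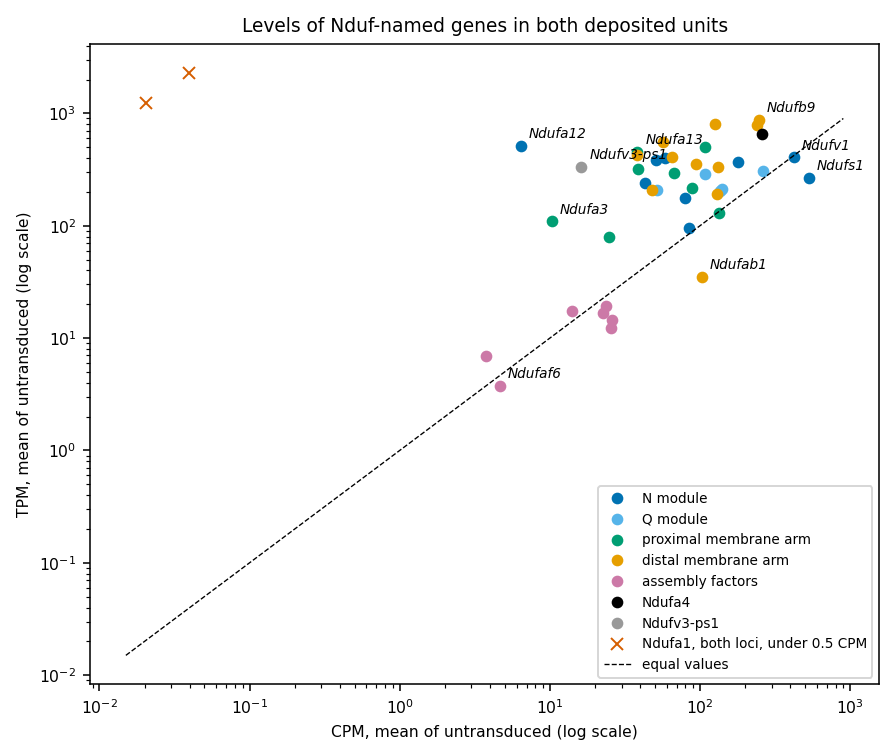
Mean TPM against mean CPM in untransduced cells (both axes logarithmic), 1 point per gene for 42 of the 43, coloured by role; crosses are the 2 rows named Ndufa1, and the dashed line marks equal values. The assembly factors lie at the lower left near the line, Ndufa12 and Ndufv3-ps1 lie far above it, and the crosses lie at 1235 and 2287 TPM with 0.0203 and 0.0393 CPM.

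The vector with the control shRNA was compared with no vector. Every one of the 43 genes stood lower with ppluc than in untransduced cells, and 31 fell (72.1%, beside 32.1% of all 12493 genes tested), including all 7 core subunits, all 6 genes of the Q module, 8 of 9 genes of the N module and 5 of 7 assembly factors. The count of genes that rose was 0 in limma, also at an unadjusted p under 0.05 and with voom weights, since no difference was above 0. The largest fall was that of Ndufc1, a small membrane subunit. Its untransduced libraries had 27.7, 24.8 and 22.1 CPM and its ppluc libraries 15.4, 15.2 and 15.5 CPM. The groups did not overlap, and the change was -0.67 ± 0.09 (log2(CPM + 0.5), limma, SE, adjusted p = 7.3e-06).

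Ndufa4 had 275, 244 and 252 CPM untransduced and 173, 164 and 180.4 CPM with ppluc, a fall by 0.57 ± 0.07 on the log2 scale (adjusted p = 8.4e-07). Ndufb5 of the distal arm fell by 0.53 ± 0.07, Ndufaf1, an assembly factor that works on the membrane arm, fell by 0.53 ± 0.08, and Ndufv2, an iron-sulfur subunit beside Ndufv1, fell by 0.52 ± 0.06. The distal arm moved least as a group: 5 of its 11 genes fell, with a median of -0.15. The 12 genes that did not pass stood at -0.29 to -0.05; among them were 6 of the distal arm, such as Ndufb4 at -0.05 ± 0.09 and Ndufb7 at -0.13 ± 0.08, and the assembly factor Ndufaf3 at -0.06 ± 0.07. The libraries of 35 of the 43 genes did not overlap between these groups, a count for which no share over all tested genes was taken.

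Of all genes tested, 24.8% were higher with ppluc, and their median was -0.04. The median of the 43 genes was -0.28. With trimmed-mean scaling, which sets the libraries level over the bulk of genes, 27 of the 43 fell (29% of all tested genes) and again all were below 0, with a median of -0.25. The call of Ndufaf2 (adjusted p = 0.047) was lost on leaving out any of 8 of the 12 libraries in turn, and that of Ndufaf5 (adjusted p = 0.018) without untransduced library C or without ppluc library B. Summed over the 43 genes, the untransduced libraries held 4642 to 4864 CPM, the ppluc libraries 3824 to 4078 CPM, the shRNA 1 libraries 2943 to 3231 CPM and the shRNA 2 libraries 3282 to 3830 CPM.

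The knockdowns of Sbk2 were then compared with ppluc. As deposited all 7 core subunits fell with shRNA 1 and 6 of them with shRNA 2, Ndufv1 the most, and after trimmed-mean scaling all 7 fell with each. Of the 7 assembly factors 5 rose with shRNA 1 and all with shRNA 2 as deposited. With shRNA 1, 19 of the 43 genes fell (18.6% of all tested genes) and 10 rose (54.7%), and with shRNA 2, 16 fell (21.1%) and 20 rose (65%). After trimmed-mean scaling, 28 fell and 3 rose with shRNA 1, and 28 fell and 6 rose with shRNA 2. The count of rises therefore rests on the scaling.

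Both splits are read against all genes. The median over all tested genes was 0.26 with shRNA 1 and 0.50 with shRNA 2, and it was 0.01 and -0.01 after trimmed-mean scaling, so the differences of the 43 genes were lower after scaling too. The median of the 43 genes was -0.18 with shRNA 1 and 0.09 with shRNA 2, both below the median of all genes, and -0.43 and -0.44 after scaling. After scaling, the background was 33.7% lower and 33.7% higher with shRNA 1, and 40.9% lower and 39.8% higher with shRNA 2. With median-of-ratios scaling 26 of the 43 fell with shRNA 2, beside 40% of all tested genes. Differences below are as deposited unless the scaling is named.

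Libraries of a group did not stand level for these genes. Library A of shRNA 2 was the lowest of its group for 42 of the 43 genes, by a median of 0.15 (log2) below the group's mean, while it was the lowest for 46.5% of all tested genes. Library B of shRNA 1 was the lowest for 36 of the 43 genes, by a median of 0.09, and the lowest for 37.2% of all tested genes. Without library A, 15 genes fell and 22 rose with shRNA 2, with a median of 0.17. Without library B, 17 fell and 12 rose with shRNA 1, and the median was -0.09.

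Ndufv1, the subunit that binds NADH and the flavin of the complex (chromosome 1, 219254279 to 219259448 in Rnor_6.0), fell the most with either shRNA. Its libraries had 422, 417 and 434 CPM untransduced, 379, 374 and 369.9 CPM with ppluc, 192, 186 and 196 CPM with shRNA 1, and 197, 209 and 224 CPM with shRNA 2. Every shRNA library lay far below every ppluc library. The change was -0.97 ± 0.05 with shRNA 1 (limma adjusted p = 8.8e-12) and -0.83 ± 0.05 with shRNA 2 (1.6e-11), and -1.24 and -1.37 after trimmed-mean scaling. In TPM the authors' means were 344 with ppluc, 187 with shRNA 1 and 192 with shRNA 2.

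Ndufs1, the largest core subunit and holder of several iron-sulfur clusters (chromosome 9, 69919867 to 69953182), came next with shRNA 1. It had 459, 451 and 486 CPM with ppluc, 258, 236 and 251 CPM with shRNA 1, and 281, 312 and 311 CPM with shRNA 2. The groups did not overlap. It fell by 0.90 ± 0.05 and by 0.63 ± 0.05 (log2, adjusted p = 6.5e-11 and 2.7e-09).

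The third core subunit of the N module, Ndufv2, went a different way with each shRNA. Its libraries had 123, 118 and 130.0 CPM with ppluc, 113, 101 and 115 CPM with shRNA 1, and 146, 165 and 169 CPM with shRNA 2. The shRNA 1 libraries lay below those of ppluc and the shRNA 2 libraries above them. The changes were -0.18 ± 0.06 (adjusted p = 0.014) and 0.36 ± 0.06 (2e-05). The fall lost its call without ppluc library C (adjusted p = 0.068) or shRNA 1 library B (0.093), and the rise turned into a fall by 0.17 after trimmed-mean scaling (adjusted p = 0.011).

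The accessory genes of the N module moved otherwise. With shRNA 2 as deposited, Ndufa2, Ndufa6, Ndufa12, Ndufs4 and Ndufv3 rose, by 0.38 to 0.73, and with shRNA 1 Ndufa7 and Ndufv3 rose, by 0.26 and 0.21. Ndufs4, whose loss causes Leigh syndrome in people, had 71.9, 72.4 and 78.4 CPM with ppluc and 86.9, 104 and 106 CPM with shRNA 2, a rise of 0.41 ± 0.06. After trimmed-mean scaling the rise of Ndufv3 with shRNA 2 passed, at 0.20, the others did not, and Ndufs4 fell by 0.13 (adjusted p = 0.047). The rise of Ndufv3 differs between the deposited units: its CPM mean went from 62.7 to 105, a log2 ratio of 0.74, while its TPM mean went from 128 to 144, a log2 ratio of 0.17. Its pseudogene Ndufv3-ps1 had 11.7, 11.1 and 10.9 CPM with ppluc and 6.7, 8.58 and 7.84 CPM with shRNA 2, and fell by 0.52 ± 0.10.

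The Q module was lower throughout. All 6 of its genes were below 0 with each shRNA. As deposited 5 fell with each (18.6% of all tested genes with shRNA 1, 21.1% with shRNA 2). After scaling all 6 fell with each (33.7% and 40.9%). The exception as deposited was Ndufa5, an accessory subunit, at -0.20 ± 0.10 and -0.18 ± 0.10. Ndufs3, a core subunit that carries no cluster, fell the most of them with shRNA 2, with 105, 99.2 and 107 CPM with ppluc, 81.8, 73.1 and 78.1 CPM with shRNA 1, and 54.7, 61.5 and 67.1 CPM with shRNA 2. These groups stood apart in steps, and it fell by 0.42 ± 0.06 with shRNA 1 and by 0.77 ± 0.06 with shRNA 2 (adjusted p = 1.3e-05 and 2.7e-09).

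Ndufs7 and Ndufs8, which hold the clusters nearest to ubiquinone, fell more with shRNA 1. Ndufs7 had 113, 116 and 122 CPM with ppluc, 75, 76 and 77.2 CPM with shRNA 1 and 87.2, 95.8 and 114 CPM with shRNA 2. It fell by 0.62 ± 0.07 and by 0.25 ± 0.07, and the highest shRNA 2 library overlapped those of ppluc. Ndufs8 had 86.5, 91.1 and 95.2 CPM with ppluc, 60.3, 58.1 and 64.1 CPM with shRNA 1 and 70.8, 73.9 and 83.4 CPM with shRNA 2, and fell by 0.58 ± 0.06 and by 0.26 ± 0.06. All 7 core subunits thus fell with shRNA 1, and 6 fell with shRNA 2 (18.6% and 21.1% of all tested genes). After scaling all 7 fell with each (33.7% and 40.9%), with medians of -0.85 and -0.79.

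**Figure D3:**
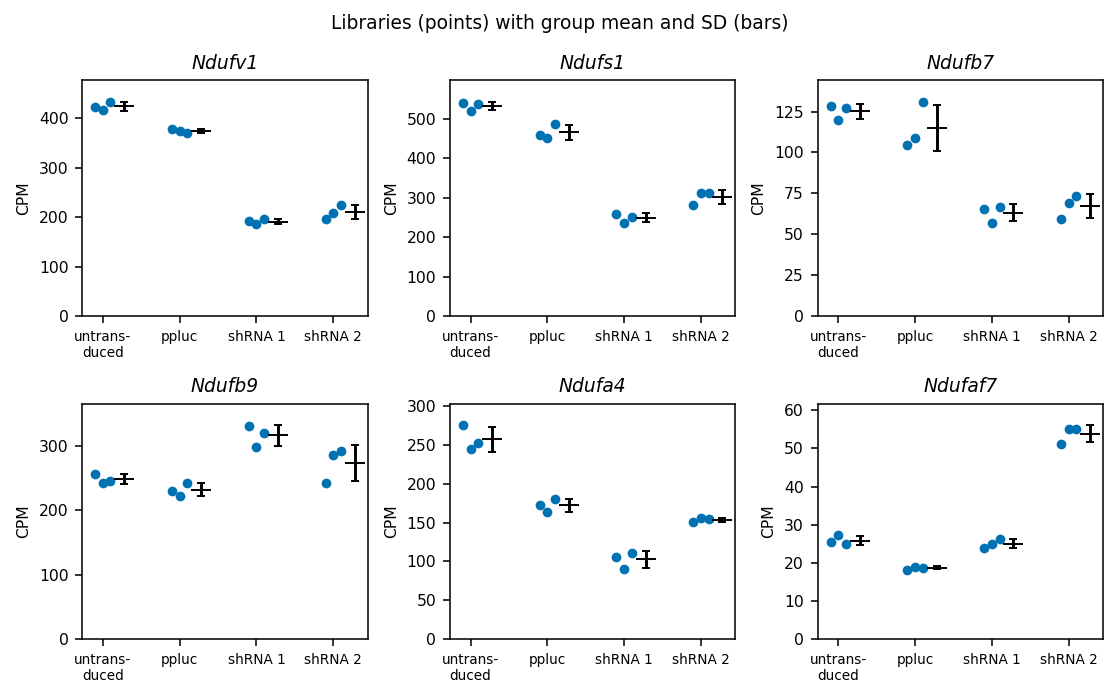
CPM in each library (points), with the group mean and its SD (bars, n = 3), for 6 genes; each axis starts at 0. Ndufv1, Ndufs1 and Ndufb7 step down with both shRNAs, Ndufa4 is lowest with shRNA 1 and was already lower with ppluc, Ndufb9 is highest with shRNA 1, and Ndufaf7 is highest with shRNA 2.

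The membrane arm was mixed. In its distal part 8 of 11 genes fell with shRNA 1 and 6 with shRNA 2 (18.6% and 21.1% of all tested genes). After scaling 10 and 11 fell (33.7% and 40.9%). Ndufb7, a subunit of the intermembrane space face, had 105, 109 and 131 CPM with ppluc, 65.7, 57.1 and 66.8 CPM with shRNA 1 and 59.4, 69.2 and 73.3 CPM with shRNA 2. Neither shRNA group overlapped ppluc, though the shRNA groups overlapped each other. It fell by 0.85 ± 0.08 and by 0.77 ± 0.08 (limma adjusted p = 5.9e-08 and 1.1e-07). Ndufb2, Ndufb4, Ndufb5, Ndufb8 and Ndufab1 also fell with both shRNAs, by 0.23 to 0.55.

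Ndufb9, the most abundant of the 43 in TPM, was the one gene of the distal arm that rose with shRNA 1. It had 230.2, 223 and 243 CPM with ppluc, 330.1, 299 and 319 CPM with shRNA 1, and 242, 286 and 292 CPM with shRNA 2. The shRNA 1 libraries lay above all others, and it rose by 0.45 ± 0.06 (adjusted p = 5.2e-06), or 0.17 after scaling. With shRNA 2 the libraries overlapped those of ppluc at the lowest of them, and the rise of 0.23 ± 0.06 reversed to a fall by 0.31 after scaling. In TPM its mean was 764 with ppluc, 1150.3 with shRNA 1 and 907 with shRNA 2.

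In the proximal part Ndufa11, an accessory subunit of the membrane arm, fell with both shRNAs, by 0.45 ± 0.09 and by 0.31 ± 0.09. Ndufa10, a subunit related to nucleoside kinases, had 115, 116 and 119 CPM with ppluc, 77.3, 69 and 74.9 CPM with shRNA 1 and 101, 116 and 119.9 CPM with shRNA 2. It fell by 0.66 ± 0.06 with shRNA 1 (adjusted p = 1.3e-08), while with shRNA 2 its libraries overlapped those of ppluc and the difference of -0.05 ± 0.06 did not pass; after scaling it fell with both, by 0.93 and by 0.59. Ndufa8 and Ndufc2 rose with both as deposited, by 0.20 and 0.23 with shRNA 1 and by 0.44 and 0.62 with shRNA 2, and none of these 4 rises passed after scaling. Ndufc1 had 15.4, 15.2 and 15.5 CPM with ppluc, 13.9, 13.1 and 14.4 CPM with shRNA 1 and 23.1, 28.9 and 28.1 CPM with shRNA 2. It rose with shRNA 2 by 0.77 ± 0.09 (0.24 after scaling, adjusted p = 0.016), and these libraries overlapped the 22.1 to 27.7 CPM of the untransduced ones. Ndufa3 and Ndufs5 of the proximal arm and Ndufb11 of the distal arm also rose with shRNA 2 as deposited, by 0.27, 0.32 and 0.27, but after scaling Ndufa3 and Ndufb11 fell, by 0.24 and by 0.27. The row named Ndufs5 is the 321-base locus on another chromosome than RefSeq's gene, so its value is uncertain as a reading of that subunit.

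Ndufa4 had 173, 164 and 180.4 CPM with ppluc, 106, 90.7 and 111 CPM with shRNA 1, and 150.4, 155 and 154 CPM with shRNA 2. It fell by 0.75 ± 0.07 with shRNA 1 (adjusted p = 1.2e-08) and by 0.17 ± 0.07 with shRNA 2 (0.024). The second call was lost without ppluc library A (adjusted p = 0.054) or C (0.096), while after scaling it was a fall by 0.70. Ndufa4l2, its relative induced by low oxygen, had 0 reads in 9 of the 12 libraries.

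Of the assembly factors, all 7 rose with shRNA 2 and 5 rose with shRNA 1 as deposited, beside 65% and 54.7% of all tested genes, with medians of 0.82 and 0.35. After trimmed-mean scaling 4 rose with shRNA 2 (39.8% of all tested genes), and 2 rose and 2 fell with shRNA 1 (33.7% each way). No test compared them with the subunits. Ndufaf7, an arginine methyltransferase (chromosome 6, 1534594 to 1545828), had 18.3, 19.1 and 18.8 CPM with ppluc, 23.9, 25 and 26.4 CPM with shRNA 1, and 51.3, 55.1 and 55.2 CPM with shRNA 2. The 3 groups were apart from each other. It rose by 0.41 ± 0.06 and by 1.50 ± 0.06 (adjusted p = 1e-05 and 1.8e-13), and by 0.15 and 0.97 after scaling.

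Ndufaf5, which hydroxylates an arginine of Ndufs7 (chromosome 3, 133232432 to 133261973), had 11.6, 10.4 and 13 CPM with ppluc, 16.9, 16.3 and 16.8 CPM with shRNA 1, and 22.4, 25.2 and 27.8 CPM with shRNA 2. Again no group overlapped another. It rose by 0.50 ± 0.09 and by 1.08 ± 0.09 (adjusted p = 7.3e-05 and 2.7e-09), and by 0.24 and 0.55 after scaling.

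Ndufaf4, which works with Ndufaf3 on the Q module, had 19.6, 18.3 and 21.1 CPM with ppluc, 25.6, 26.8 and 23.5 CPM with shRNA 1, and 35.9, 39.7 and 37.9 CPM with shRNA 2. It rose by 0.35 ± 0.07 and by 0.93 ± 0.07, and after scaling the second rise passed, at 0.40. Ndufaf1 had 16.3, 15 and 15.6 CPM with ppluc, 17.8, 15.8 and 14.3 CPM with shRNA 1, and 25.3, 29.6 and 29.2 CPM with shRNA 2. Its shRNA 1 libraries overlapped those of ppluc (0.03 ± 0.08), and it rose by 0.82 ± 0.08 with shRNA 2, or by 0.30 after scaling, where it fell by 0.24 with shRNA 1.

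Ndufaf3 rose by 0.29 ± 0.07 and by 0.39 ± 0.07, and stood at 0.02 and -0.14 after scaling, neither passing. Ndufaf6 rose by 0.47 ± 0.13 and by 0.55 ± 0.13, and stood at 0.23 and 0.06 after scaling, neither passing. Ndufaf2, a factor of the late steps of assembly, had 3.39, 2.88 and 2.61 CPM with ppluc and 4.61, 4.93 and 5.28 CPM with shRNA 2, a rise of 0.66 ± 0.13 that stood at 0.18 after scaling and did not pass. With shRNA 1 its libraries overlapped those of ppluc (-0.20 ± 0.13). A single read was worth 0.0210 to 0.0330 CPM.

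**Figure D4:**
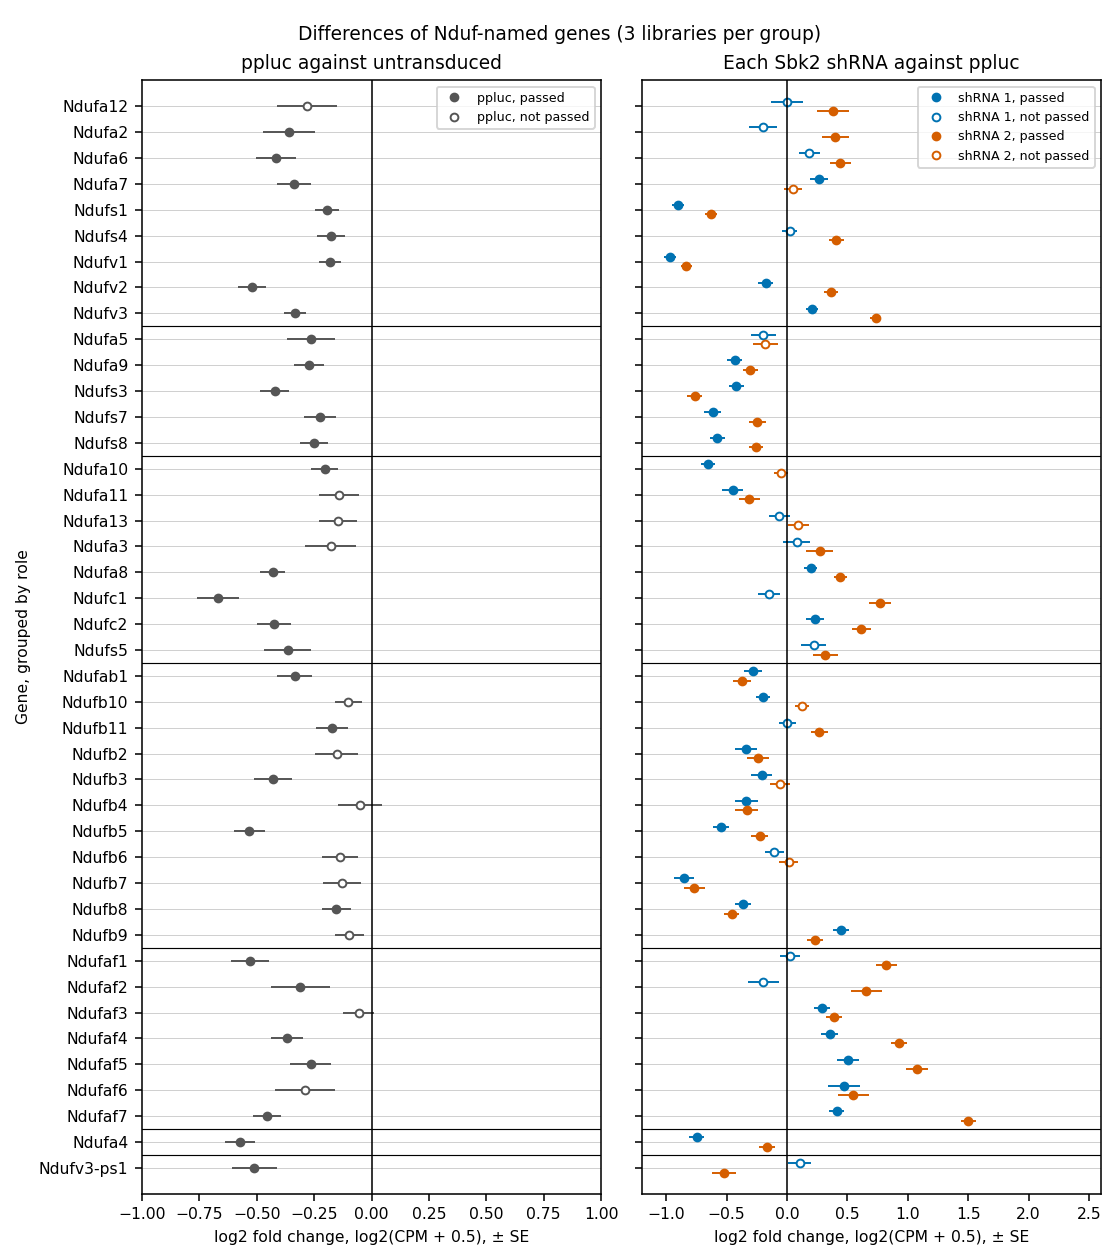
Log2 fold change of 42 of the 43 genes on the log2(CPM + 0.5) scale, ± the limma SE from 3 libraries per group; filled points passed an adjusted p of 0.05. Left, ppluc against untransduced, where every point lies below 0; right, each shRNA against ppluc, as deposited, where the Q module lies below 0 and the assembly factors with shRNA 2 lie above it.

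Both comparisons share the ppluc libraries, so that a like direction in them is not independent. Tested as the mean of both shRNAs against ppluc, 17 of the 43 genes fell (18.7% of all tested genes were lower) and 15 rose (64.4% higher), or 27 and 3 after scaling (39.3% and 37.3%).

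Set directly against each other, the shRNAs gave a share of lower genes near that of all tested genes. Of the 43, 23 were lower with shRNA 1 than with shRNA 2 and 4 were higher as deposited, beside 53.2% and 27.7% of all tested genes, and the medians were -0.24 for the 43 and -0.25 for all genes. After scaling 11 were lower and 11 higher (38.5% and 39% of all tested genes), with a median of 0.02. Without library A of shRNA 2, 31 were lower as deposited.

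Some assembly factors and subunits differed between the shRNAs as deposited and after scaling. Ndufaf3 and Ndufaf6 did not pass as deposited. After trimmed-mean scaling Ndufaf3 was higher with shRNA 1 by 0.16 (limma adjusted p = 0.035), which did not pass with median-of-ratios scaling. Among those lower with shRNA 1 were Ndufaf7 (-1.09 ± 0.06, or -0.82 after scaling), Ndufc1 (-0.92 ± 0.09, or -0.66), Ndufaf2 (-0.85 ± 0.13, or -0.61), Ndufaf1 (-0.80 ± 0.08, or -0.54) and Ndufa10 (-0.61 ± 0.06, or -0.34). Among those higher with shRNA 1 were Ndufv3-ps1 (0.63 ± 0.10, or 0.87), Ndufs3 (0.35 ± 0.06, or 0.61), Ndufa7 (0.22 ± 0.07, or 0.48) and Ndufb9 (0.21 ± 0.06, or 0.48). Ndufv1 was lower with shRNA 1 by 0.13 ± 0.05 as deposited and higher by 0.13 after scaling, so its order between the shRNAs was not settled.

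Against untransduced cells, which received no vector, more of the genes were lower. With shRNA 1, 33 of the 43 genes were lower and 3 higher (24.3% and 51.4% of all tested genes), and after scaling 39 were lower (36.2% of all tested genes). With shRNA 2, 21 were lower and 9 higher (22.9% and 62.7%), or 37 and 2 after scaling (41.7% and 39.4%); with median-of-ratios scaling 36 were lower (40.4%). All 7 core subunits were lower with each shRNA, the 6 described here from -0.70 to -1.15 with shRNA 1 and from -0.15 to -1.19 with shRNA 2, where the smallest, that of Ndufv2, lost its call without untransduced library A or C or shRNA 2 library A (adjusted p = 0.060 to 0.13). The largest falls were those of Ndufa4 with shRNA 1 (-1.32 ± 0.07, from 244 to 275 CPM to 90.7 to 111 CPM) and of Ndufs3 with shRNA 2 (-1.19 ± 0.06, from 134 to 143 CPM to 54.7 to 67.1 CPM). Without library B of shRNA 1, 27 genes were lower with shRNA 1.

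For the assembly factors the untransduced reference gave other counts than ppluc. As deposited 2 were lower and 2 higher with shRNA 1 (24.3% and 51.4% of all tested genes). With shRNA 2, 6 were higher (62.7%). After scaling 4 were lower and 0 higher with shRNA 1 (36.2% and 36%), and 2 were lower and 2 higher with shRNA 2 (41.7% and 39.4%). With shRNA 1 the summed CPM of the assembly factors as deposited was 116 to 121, next to 119 to 122 in untransduced and 91.9 to 96.6 in ppluc libraries. On that scale the shRNA 1 libraries overlapped the untransduced and not the ppluc ones. After trimmed-mean scaling the median of these factors with shRNA 1 was -0.25 against untransduced cells and 0.09 against ppluc. With shRNA 2 the sum as deposited was 172 to 193 CPM, above every other library. There Ndufaf7 stood 1.05 ± 0.06 and Ndufaf5 0.81 ± 0.09 above untransduced cells (0.55 and 0.32 after scaling, both passing), while Ndufaf1, Ndufaf2 and Ndufaf3 were higher as deposited and below 0 after scaling.

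Other genes of complex I were read beside these. Of 11 assembly factors with other names, 9 passed the filter. With shRNA 1, 2 were higher and 2 lower as deposited (54.7% and 18.6% of all tested genes; median 0.06), or 1 and 6 after scaling (33.7% each way). With shRNA 2, 6 were higher and 1 lower (65% and 21.1%; median 0.57), a share of rises near that of all tested genes, or 4 and 3 after scaling (39.8% and 40.9%). Timmdc1, which builds the membrane arm, had 17.0, 17.2 and 13.6 CPM with ppluc, 20.8, 21.3 and 19.7 CPM with shRNA 1 and 41.6, 48.3 and 51.3 CPM with shRNA 2, and rose by 0.37 ± 0.09 and by 1.53 ± 0.09, or by 1.00 with shRNA 2 after scaling, where the change with shRNA 1 did not pass. Nubpl, which delivers iron-sulfur clusters to the complex, rose with shRNA 1 (0.65 ± 0.11) and stood at -0.05 ± 0.11 with shRNA 2, which was a fall by 0.56 after scaling. Acad9, a partner of Ndufaf1, fell with both shRNAs, by 0.20 ± 0.07 and by 0.27 ± 0.07.

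Of the 5 mitochondrially encoded subunits whose libraries could be told singly, all 5 fell with shRNA 1 and 3 with shRNA 2 as deposited, beside 18.6% and 21.1% of all tested genes. After trimmed-mean scaling 6 of all 7 such subunits were lower with each shRNA (33.7% and 40.9% of all tested genes). That count takes in the genes whose libraries could not be told singly. Mt-nd4, of the distal proton channels, had 304, 233 and 219 CPM with ppluc, 81.0, 99.7 and 87.1 CPM with shRNA 1 and 206, 197 and 208 CPM with shRNA 2, and fell by 1.48 ± 0.10 and by 0.29 ± 0.10. For Mt-nd2 and Mt-nd5 several splits over libraries return the deposited mean, so only those means are given: 1631 and 1524 CPM with ppluc, 914 and 798 CPM with shRNA 1, and 1708 and 838 CPM with shRNA 2.

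Nuclear genes of complexes II to V, chosen by name (45 tested of 49 symbols), had 34 lower and 2 higher with shRNA 1 and 25 lower and 7 higher with shRNA 2, with medians of -0.40 and -0.28, where 18.6% and 54.7% of all tested genes were lower and higher with shRNA 1, and 21.1% and 65% with shRNA 2. After scaling 42 and 41 were lower (33.7% and 40.9% of all tested genes). Of 11 regulators of mitochondrial genes, 5 fell and 3 rose with shRNA 1 (18.6% and 54.7% of all tested genes). With shRNA 2, 4 fell and 7 rose (21.1% and 65%), a share of rises near that of all tested genes. After scaling 7 fell and 1 rose with shRNA 1 (33.7% each way), and 6 fell and 1 rose with shRNA 2 (40.9% and 39.8%). Perm1, a muscle regulator of mitochondrial genes, had 3.21, 3.03 and 3.49 CPM with ppluc, 0.595, 0.516 and 0.517 CPM with shRNA 1 and 0.784, 0.991 and 0.436 CPM with shRNA 2, changes of -1.84 ± 0.15 and -1.62 ± 0.15. Esrra, a nuclear receptor that binds the ERR word, had 111, 118 and 126 CPM with ppluc, 51.3, 49.2 and 52.6 CPM with shRNA 1 and 156, 159 and 180 CPM with shRNA 2. It fell by 1.20 ± 0.06 with shRNA 1 and rose by 0.48 ± 0.06 with shRNA 2, a rise that stood at -0.06 after scaling. Ppargc1b, Esrrg and Ppara also had lower group means with both shRNAs as deposited. Ppargc1b had 42.4 CPM with ppluc, 14.6 CPM with shRNA 1 and 11.8 CPM with shRNA 2. Esrrg had 101, 76.4 and 43.8 CPM in that order, and Ppara 4.54, 1.34 and 3.31 CPM. Tfam, Pprc1 and Gabpa were among those with higher group means with both shRNAs as deposited. Tfam had 50.6 CPM with ppluc, 70.6 CPM with shRNA 1 and 60.6 CPM with shRNA 2. In the same order Pprc1 had 39.5, 49.6 and 49.3 CPM, and Gabpa 48.6, 54.2 and 90.7 CPM. The part of these regulators in the changes of the 43 genes was not tested.

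Of the series as a whole, libraries held 30274847 to 47517427 assigned reads, so that 3 reads are 0.0631 to 0.0991 CPM. Sbk2, the gene targeted, had 42.6 to 47.3 CPM untransduced, 24.8 to 29.6 CPM with ppluc, 1.00 to 1.13 CPM with shRNA 1 and 0.62 to 0.719 CPM with shRNA 2. All 6 markers of cardiac myocytes were above 1 CPM, and their summed group means were 60192 CPM untransduced, 57016 CPM with ppluc, 28563 CPM with shRNA 1 and 18798 CPM with shRNA 2; over Actn2 and Ryr2, whose libraries could be told singly, the sums were 1618 to 1688, 1219 to 1329, 1179 to 1226 and 575 to 736 CPM. Both marker sums were lowest with shRNA 2. The sums over the 43 genes were lowest with shRNA 1, at 2943 to 3231 CPM, against 3282 to 3830 CPM with shRNA 2. The part of the marker levels in the falls above was not tested. In bulk RNA, fewer cells of a type and less RNA per cell cannot be told apart. Of other cell types, the fibroblast markers Lum and Tcf21, the endothelial markers Cdh5 and Emcn, the smooth muscle marker Rgs5 and the immune markers Ptprc and Cd3e were at 0 in every group. The summed means ran from 17.7 CPM (shRNA 2) to 135 CPM (ppluc) for 6 fibroblast markers, nearly all Col1a1, from 78.6 to 215 CPM for 5 endothelial markers, nearly all Kdr, from 2518 to 7929 CPM for 6 smooth muscle markers, mostly Acta2, and from 0.168 to 0.969 CPM for 5 immune markers.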

How the data were processed

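Polyadenylated RNA of 12 iAM-1 samples was made into stranded libraries and sequenced as pairs of 150 bases, per the labels' protocols. The submitters' processing notes name DESeq2 and Rnor_6.0; no source used here gives the aligner or counter. The authors deposited CPM and TPM as means over the 3 samples of each group, 32761 and 32810 rows, and locus positions. Because a CPM is a whole number of reads over a library's total, the 12 totals and the reads per library were recovered from the deposited CPM means: in at least 99.7% of genes above 0 in a group, 1 set of 3 whole reads alone returned the stored mean, and so for all 43 genes in every group. The recovered sums differ from the totals by at most 0.958%. Shifted control values had such a set in 1 or 2 of 2000 trials. The recovery was tested on simulated data. Libraries are called A, B and C by total reads; the columns carry no replicate numbers.

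Tests used limma 3.58.1 in R 4.3.3 on log2(CPM + 0.5), with all 4 groups in 1 fit, a trend in the prior variance, genes at 0.5 CPM or more in at least 3 libraries (12493 genes), and p-values adjusted by Benjamini-Hochberg over all of them in each of 7 comparisons. A gene is called at an adjusted p under 0.05. A fold change on this scale understates the change of low genes. Alternatives were pseudocounts of 0.1 and 1, other filters, trimmed-mean and median-of-ratios scaling, voom weights and leaving out each library. The genes named are the core subunits, Ndufa4, Ndufa4l2, all Ndufaf genes and, in each comparison, the 5 largest falls and rises among those called; other single genes were chosen after their values were seen. The values of 1 core subunit are not reported here; it stays in the counts and medians. Members and lists were chosen with earlier results of these data known, which also covers the promoter words and the marker lists. Python 3.11.15, numpy 2.4.6, pandas 2.3.3 and matplotlib 3.10.9 were used.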

Additional observations from a re-analysis of the deposited data

Results flagged for a closer look

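Ndufv2 was the single gene of the 43 that passed in opposite directions with the 2 shRNAs as deposited, and the direct comparison of the shRNAs tested that difference. Against ppluc it was lower with shRNA 1 (-0.18 ± 0.06) and higher with shRNA 2 (0.36 ± 0.06), and shRNA 1 minus shRNA 2 was -0.54 ± 0.06 (log2(CPM + 0.5), limma adjusted p = 1.9e-07, 3 libraries each, no overlap). After trimmed-mean scaling it was lower with both shRNAs, by 0.45 and by 0.17, and shRNA 1 minus shRNA 2 was -0.28, which passed. Other genes passed in opposite directions against ppluc after that scaling. Ndufb9 was higher with shRNA 1 and lower with shRNA 2, and Ndufaf1 and Ndufc1 were lower with shRNA 1 and higher with shRNA 2.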

How the results depend on the processing

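Over 43 genes in 7 comparisons, the counts of falls and rises and the medians kept their direction and stayed within 1.5 times (medians within the spread between replicates) with pseudocounts of 0.1 or 1 CPM, no filter or a filter of 2 CPM, and voom weights. The scaling moved them. With trimmed-mean and median-of-ratios scaling respectively, falls and rises were 27 and 3, and 27 and 3, for both shRNAs against ppluc (medians -0.39 and -0.38). Rises were 3 and 3 for shRNA 1 against ppluc (medians -0.43 and -0.43). Falls were 28 and 26 and rises 6 and 6 for shRNA 2 against ppluc (medians -0.44 and -0.42). Between the shRNAs, falls were 11 and 12 and rises 11 and 10 (medians 0.021 and 0.00014). Against untransduced cells, rises with shRNA 1 were 0 and 0 in limma (0 and 0 also at an unadjusted p under 0.05; medians -0.70 and -0.69), and falls and rises with shRNA 2 were 37 and 2, and 36 and 2 (medians -0.62 and -0.60).

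The same scalings, in that order, turned the direction of some genes called as deposited: 8 and 8 for both shRNAs against ppluc, 4 and 4 with shRNA 1, 11 and 11 with shRNA 2, 3 and 2 between the shRNAs, and against untransduced cells 1 and 0 with shRNA 1 and 6 and 6 with shRNA 2. All were rises as deposited, except those between the shRNAs, which were lower with shRNA 1. Values are given for genes that the rule named in any comparison, so some of the lists below are partial. For both shRNAs against ppluc these were Ndufa7 (-0.25, -0.24), Ndufaf3 (-0.060, -0.050), Ndufb9 (-0.067, -0.057) and Ndufc1 (-0.087, -0.077). With shRNA 1 they were Ndufa7 (-0.0077, -0.0077) and Ndufv3 (-0.067, -0.067), and Ndufa8 and Ndufc2 turned as well. With shRNA 2 they were Ndufaf3 (-0.14, -0.12), Ndufb9 (-0.31, -0.29) and Ndufv2 (-0.17, -0.15). There Ndufa2, Ndufa3, Ndufa6, Ndufa8, Ndufa12, Ndufb11, Ndufs4 and Ndufs5 turned as well. Between the shRNAs this was Ndufv1 (0.13, 0.11), and Ndufa8 (0.02, 0.00014) turned as well. Against untransduced cells they were Ndufaf1 (-0.20, -0.18), Ndufaf2 (-0.10, -0.080), Ndufaf3 (-0.16, -0.13) and Ndufv3 (-0.099, -0.073) with shRNA 2, and Ndufaf3 with shRNA 1 (-0.0021 with trimmed-mean scaling). Against ppluc, trimmed-mean scaling also lowered the median over all tested genes. It went from 0.26 to 0.01 with shRNA 1 and from 0.50 to -0.01 with shRNA 2. What sets the libraries apart in scale was not tested.

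Leaving out each library in turn gave medians of -0.21 to -0.092 for shRNA 1 against ppluc and -0.52 to -0.36 for shRNA 1 against untransduced cells. No paired analysis was possible because the deposited columns are group means and carry no replicate numbers. With 3 libraries a group, the SE of a difference between 2 groups was 0.05 to 0.13 (log2), which limits what could pass.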
